A study of Arabidopsis thaliana with 12 samples.

Results

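The interaction of ceh1 and eds16 is the difference between what the ceh1 mutation did to a transcript in plants without working ICS1 and what it did in plants with it. It was measured in rosettes of Arabidopsis thaliana with all 12 libraries of the series, 3 biological replicates for each of 4 genotypes: the double mutant ceh1/eds16, the single mutants eds16 and ceh1, and wild type Col-0, which the titles call the parent. ceh1 is an allele of HDS, which encodes the plastid enzyme that turns methylerythritol cyclodiphosphate into the next intermediate of isoprenoid synthesis, and eds16 is an allele of ICS1 (isochorismate synthase). Every plant was 3 weeks old and grown in soil under long days, no other allele, transgene or treatment is given for any genotype, and the labels do not say how many plants went into a library or when in the day they were taken. For each gene the interaction is the log2 fold change of ceh1/eds16 against eds16 minus that of ceh1 against Col-0, on log2(normalized count + 1). A positive interaction means that the transcript responded to ceh1 more upward, or less downward, in the eds16 background. The test took the 18289 of 33602 genes in the table whose normalized counts averaged 10 or more across the 12 libraries. A gene is called at an adjusted p under 0.05 (limma, Benjamini-Hochberg over the 18289 genes), gene values are normalized counts, and "with ICS1 intact" stands for ceh1 against Col-0. Adding 1 before the log shrinks the fold change of a gene with few reads.

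As background, plants that carry ceh1 build up methylerythritol cyclodiphosphate, a precursor of plastid isoprenoids that also acts as a stress signal to the nucleus, and they hold high levels of salicylic acid, most of it made through ICS1. Salicylic acid is read by the receptor NPR1, whose partner TGA and WRKY factors switch on pathogenesis-related genes such as PR1. It is known to hold down the branch of jasmonate and ethylene signalling that ends in plant defensins. N-hydroxypipecolic acid, made from lysine by ALD1 and FMO1, is a second mobile signal of systemic resistance. The circadian clock gates many immune genes, and salicylic acid and the clock are known to act on each other.

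Reads in genes ranged from 7153024 to 8698906 per library in ceh1/eds16, 6478773 to 8897940 in eds16, 7401206 to 18081979 in ceh1 and 4986863 to 7328010 in Col-0. Replicate 3 of ceh1/eds16 was unlike its fellow replicates. Over 12049 genes with a mean of at least 100 its median absolute log2 difference was 0.297 from replicate 1 and 0.320 from replicate 2, against 0.141 between those 2 and 0.114 to 0.187 within the other genotypes. Its deviation from a gene's mean over the 12 libraries ran with annotated gene length, with a median of 0.402 in the shortest 20% of genes and -0.321 in the longest 20%. Smaller trends of the same sense were seen in ceh1 replicates 1 (0.186 and -0.169) and 2 (0.239 and -0.245), and of the opposite sense in ceh1/eds16 replicate 2 (-0.160 and 0.109) and in Col-0 replicates 1 (-0.208 and 0.257), 2 (-0.175 and 0.147) and 3 (-0.104 and 0.101). Results that rest on this library are given with and without it. Summed root markers (9 genes) stood at 966 to 1158 in ceh1/eds16, against 464 to 487 in eds16, and at 994 to 1226 in ceh1, against 437 to 572 in Col-0. Only 3 of the 9 root markers passed the filter on low values. Their median log2 effect of ceh1 was -0.1 in the eds16 background and -0.32 with ICS1 intact, so the sum does not describe the markers as a set. The 11 seed storage markers summed to 4.9 to 8.9 in ceh1/eds16, 0 to 2.1 in eds16, 7.3 to 14.0 in ceh1 and 0 to 3.6 in Col-0, with SESA1 and SESA4 at 0 throughout. Of the 6 marker lists of other organs and cell types, 1 of 36 members tested was called in the interaction, the vascular protease gene XCP1 (-1.07), against 4.87% of all genes, and 3 without replicate 3 of ceh1/eds16 (2 higher and 1 lower). The part of the root and seed markers in the results was not tested. All 40 photosynthesis genes of the lists, which mark green tissue, passed the filter on low values.

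ICS1 (AT1G74710; chromosome 1, 28070295 to 28074177, TAIR10.1 annotation), the gene disrupted in eds16, stood at 14.2, 20.5 and 28.3 in ceh1/eds16, against 19.2, 16.0 and 10.4 in eds16. With ICS1 intact it stood at 631, 677 and 689.8 in ceh1, against 235, 277 and 224 in Col-0. The transcript was thus low in all 6 libraries labelled as carrying eds16, and its interaction of -1.01 ± 0.33 (SE, adjusted p = 0.086, limma) was not called. It was called without ceh1/eds16 replicate 3 (-1.24, adjusted p = 0.00791) and without eds16 replicate 3 (-1.24, adjusted p = 0.0315). HDS (AT5G60600; chromosome 5, 24358885 to 24363485) stood at 2338 ± 274 in ceh1/eds16, against 3683 ± 287 in eds16 (SD, n = 3 each). With ICS1 intact the counts were 1589 ± 240.0 in ceh1, against 3765 ± 159 in Col-0 (SD, n = 3 each). HDS fell in both backgrounds (adjusted p = 0.000437 and 5.83e-07, limma), and its interaction of 0.60 ± 0.18 (SE, adjusted p = 0.0662, limma) was not called. It was called without ceh1/eds16 replicate 3 (0.66, adjusted p = 0.0123, limma) and without ceh1 replicate 3 (0.71, adjusted p = 0.0318, limma). DESeq2 on reads recovered from the normalized counts also called the interaction of HDS, while edgeR did not.

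The effect of ceh1 differed between the backgrounds for 891 genes, 4.87% of those tested: 564 (3.08%) had a higher interaction and 327 (1.79%) a lower one. At an unadjusted p under 0.05 there were 3985. For comparison, 42.3% of the genes were called in ceh1/eds16 against eds16, 50.2% in ceh1 against Col-0, 10.2% in ceh1/eds16 against ceh1 and 4.6% in eds16 against Col-0. Without replicate 3 of ceh1/eds16 there were 1684 higher (9.21%) and 1329 lower (7.27%), including all 891. The calls were fewest without replicate 1 or 2 of ceh1, with 243 and 241 higher and 105 and 114 lower. They were 275 and 136 without eds16 replicate 1, 325 and 144 without eds16 replicate 2, 334 and 164 without ceh1/eds16 replicate 2, 280 and 152 without Col-0 replicate 2 and 403 and 192 without Col-0 replicate 1, and 304 of the 891 were called whichever library was left out. Each of the 891 kept its sign in every alternative that tested it, but the split moved with the scaling: 63.3% of calls were higher with the authors' size factors, 52.1% after quantile normalization, 44.5% with equal upper quartiles and 35.9% with equal library totals, which moved the median interaction of all genes to -0.097, against 0.024. The median interaction also ran with gene length, at -0.186, -0.053, 0.008, 0.071 and 0.204 in 5 equal groups of genes from short to long, and the part of this trend in the calls was not tested beyond the fit with the trend removed, which called 993 higher and 572 lower with 848 of the 891 among them. In bulk tissue, fewer cells of a type and less RNA per cell cannot be told apart.

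**Figure D1:**
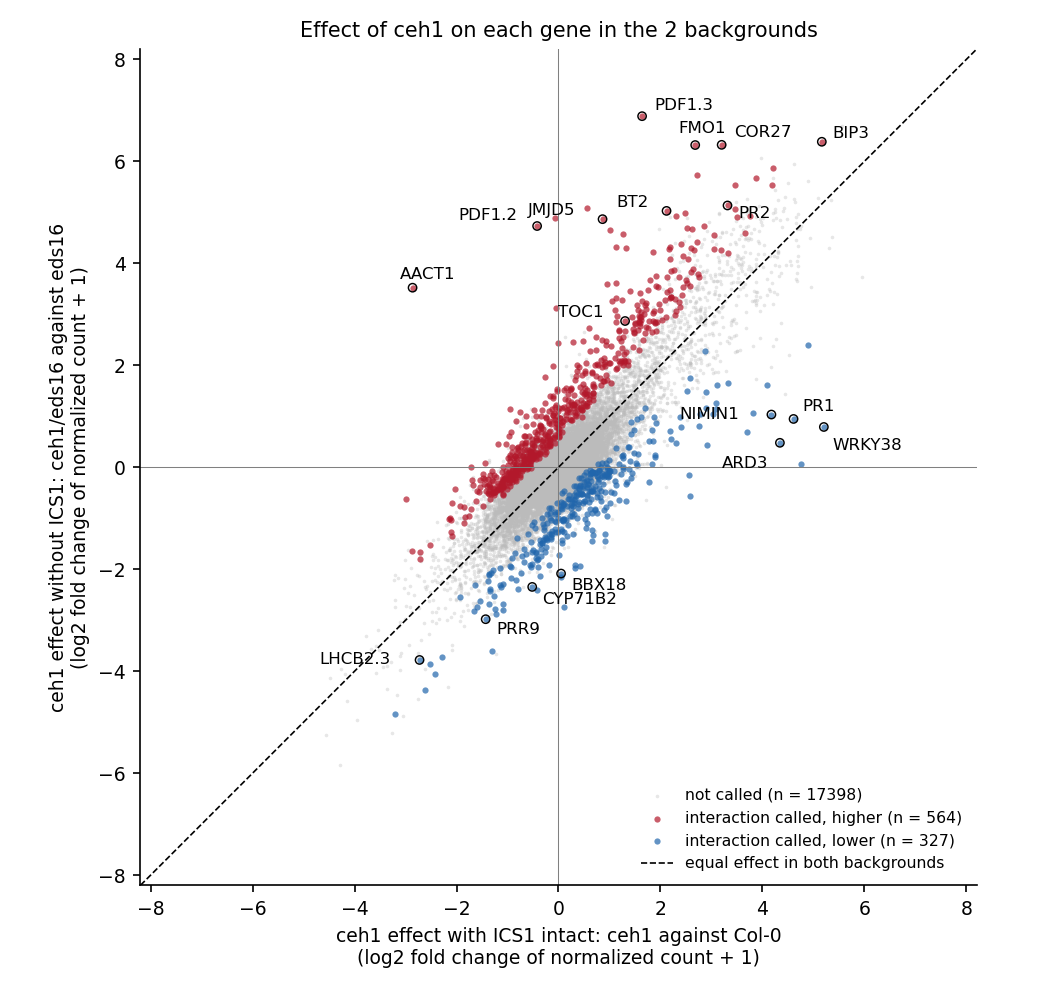
Effect of ceh1 on each of the 18289 genes tested in the eds16 background (vertical axis, ceh1/eds16 against eds16) and with ICS1 intact (horizontal axis, ceh1 against Col-0), as log2 fold changes. Points above the dashed line of equal effects have a positive interaction: AACT1 and the defensin genes PDF1.2 and PDF1.3 lie far above it, and WRKY38, PR1 and ARD3 far below.

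The calls took 10 shapes. The most frequent was a rise in both backgrounds that was larger without ICS1, in 209 genes, while 30 genes rose less without ICS1. A further 122 genes rose and 104 fell in the eds16 background alone, and 146 fell and 105 rose with ICS1 intact alone. Falls called in both backgrounds were smaller without ICS1 in 51 genes and larger in 59. The direction turned round in 65 genes: 36 rose in ceh1/eds16 and fell in ceh1, each against its own control, and 29 did the reverse. Without replicate 3 of ceh1/eds16 the most frequent shapes were a fall (739) or a rise (539) with ICS1 intact alone, and the larger rise had 365 genes. Seen from the other side of the layout, 356 of the 564 (63.1%) were higher in ceh1/eds16 than in ceh1 with no call in eds16 against Col-0. Another 100 (17.7%) had the opposite pattern, lower in eds16 than in Col-0 with no call between ceh1/eds16 and ceh1. Of the 327 lower interactions, 182 (55.7%) were lower in ceh1/eds16 than in ceh1 with no call in eds16 against Col-0, and 50 (15.3%) were higher in eds16 than in Col-0 with no call between ceh1/eds16 and ceh1.

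**Figure D2:**
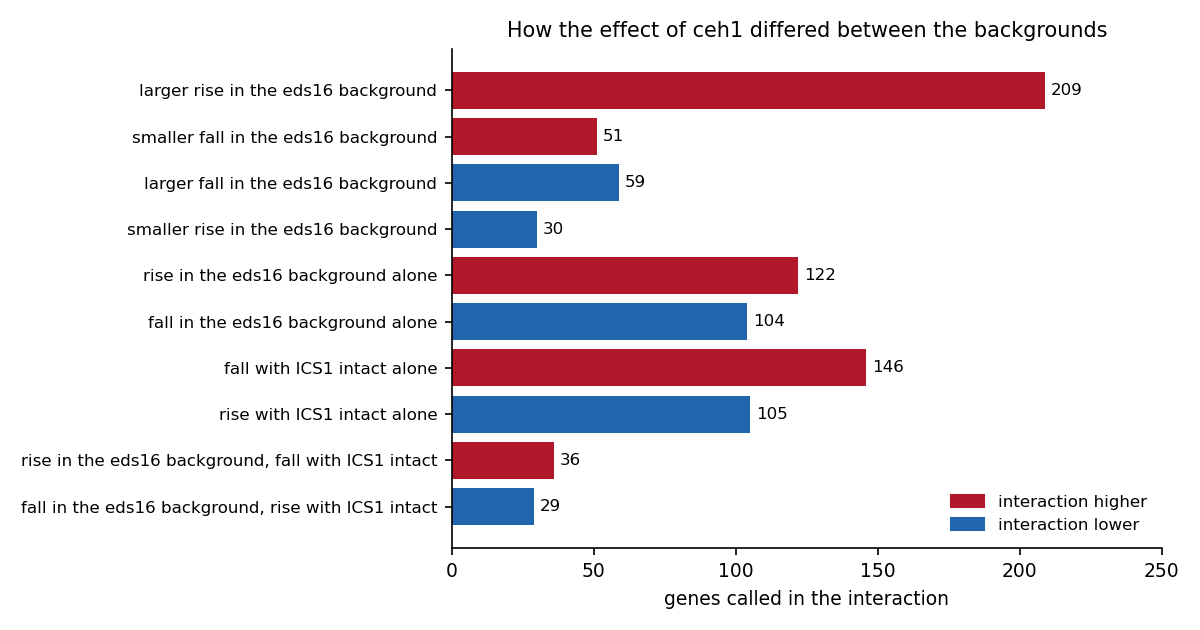
Number of genes called in the interaction (horizontal axis) by the shape of the difference, with "alone" meaning that the effect of ceh1 was called in that background and not in the other. Red bars are higher interactions and blue bars lower ones, and the longest bar is the 209 genes with a larger rise in the eds16 background.

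The called genes of the salicylic acid response parted into those that rose less with ceh1 when ICS1 was missing and those that rose more. Most tested members were not called, among them NPR1 itself (-0.02). Of 24 tested members of the list of NPR1 signalling and salicylic acid response, 5 had a lower interaction, against 1.79% of all genes, and 4 a higher one, against 3.08%. The list's median was -0.29, against 0.024 over all genes, and without replicate 3 of ceh1/eds16 the counts were 9 and 4. WRKY38 (AT5G22570; chromosome 5, 7495455 to 7496990), a transcription factor gene that lies downstream of NPR1, stood at 9.78, 7.55 and 11.7 in ceh1/eds16, against 4.80, 5.32 and 5.18 in eds16. Where ICS1 worked it stood at 507, 575 and 496 in ceh1, against 15.5, 8.92 and 16.7 in Col-0. The 3 ceh1 libraries were thus far above the other 9, and the interaction was -4.41 ± 0.37 (SE, adjusted p = 7.07e-06, limma). WRKY38 passed the filter on low values only with its counts in ceh1. PR1 (AT2G14610; chromosome 2, 6241640 to 6242541), the usual marker of salicylic acid signalling, stood at 105, 59.3 and 92.7 in ceh1/eds16, against 40.3, 53.2 and 36.3 in eds16. In the pair with ICS1 it stood at 8934, 8031 and 5199.5 in ceh1, against 181, 409 and 343 in Col-0. Its rise in ceh1/eds16 was called (log2 0.95, adjusted p = 0.0102, limma) but stayed below the level of Col-0 in every library, and the interaction was -3.66 ± 0.39 (SE, adjusted p = 6.2e-05, limma). NIMIN1, whose product binds NPR1, stood at 15.9 ± 5.73 in ceh1/eds16, against 7.12 ± 2.03 in eds16 (SD, n = 3 each). Its counts with ICS1 intact were 168 ± 34.2 in ceh1, against 8.88 ± 4.66 in Col-0 (SD, n = 3 each), an interaction of -3.14 ± 0.48 (SE, adjusted p = 0.00145, limma). PCC1, a small membrane-associated protein named for its control by pathogens and the clock, rose with ICS1 intact alone, with 1645, 2025 and 1476 in ceh1, against 521, 441 and 523 in Col-0. Without ICS1 it stood at 255, 163 and 343 in ceh1/eds16, against 296, 378 and 234 in eds16, an interaction of -2.07 ± 0.31 (SE, adjusted p = 0.00118, limma).

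The promoter of WRKY38, the gene with the most negative interaction among those with a symbol, is shown as the 250 bases before the annotated start (TAIR10.1, RefSeq), 5′ to 3′ on the gene's strand with the W-box core in capitals. The W-box, which WRKY factors bind, has the core TTGAC, and the match here lies on the opposite strand.
WRKY38 (chr5:7496991-7497240, minus strand): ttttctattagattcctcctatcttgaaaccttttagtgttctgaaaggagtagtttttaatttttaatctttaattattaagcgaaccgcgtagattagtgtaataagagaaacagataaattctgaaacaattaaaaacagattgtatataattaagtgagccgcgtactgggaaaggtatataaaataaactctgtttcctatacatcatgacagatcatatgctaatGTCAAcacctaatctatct
The match lies 19 to 15 bases before the start. A match to these 5 letters is a description and not a site: 50.7% of the 18275 promoters searched hold it.

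PR2 and PR5, which are classed with PR1 as salicylic acid markers, did not share its pattern. PR2 (AT3G57260; chromosome 3, 21188397 to 21189967), a glucanase gene, stood at 4927, 5278 and 5986 in ceh1/eds16, against 140.1, 158 and 158 in eds16. In plants with working ICS1 it had 7265, 5774 and 5647 in ceh1, against 496, 828 and 582 in Col-0. The ceh1/eds16 and ceh1 libraries overlapped, while the eds16 libraries lay below those of Col-0 (log2 -2.02, adjusted p = 2.16e-06, limma). The positive interaction of 1.82 ± 0.23 (SE, adjusted p = 0.00025, limma) therefore came with a low level in eds16 and not with a level in ceh1/eds16 above ceh1. PR5 (AT1G75040; chromosome 1, 28177670 to 28179022), a thaumatin-like protein gene, had the same order, at 772, 1045 and 1247 in ceh1/eds16, against 80.6, 79.8 and 72.5 in eds16. On the ICS1 side it stood at 1201, 1057 and 959 in ceh1, against 246, 421 and 276 in Col-0, an interaction of 1.87 ± 0.27 (SE, adjusted p = 0.000785, limma). On the scale of normalized counts the interaction of PR2 was -349 ± 614 (SE) and that of PR5 186 ± 164 (SE), both within 2 SE of 0. Other members that were called were AIG1 (1.60) and ACD6 (0.82), which had higher interactions, and WRKY54 (-0.82).

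**Figure D3:**
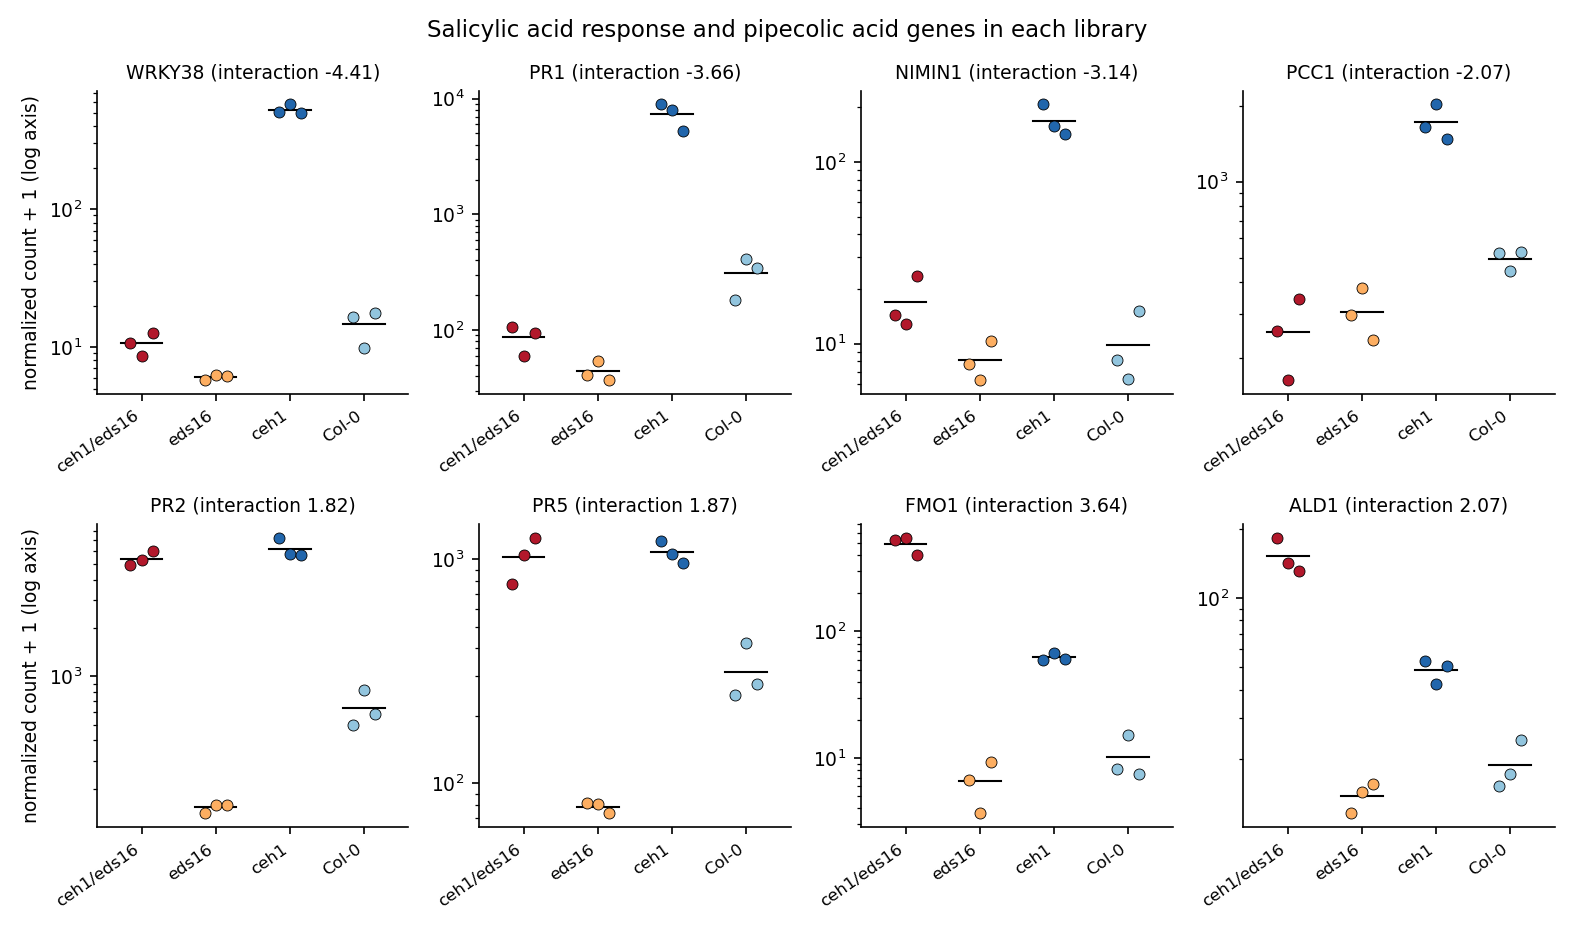
Normalized count + 1 (log axis) of 8 genes in each of the 12 libraries, with the genotypes from left to right ceh1/eds16, eds16, ceh1 and Col-0, points for libraries and bars for group means. In the top row the ceh1 libraries stand above the others, and in the bottom row PR2 and PR5 are as high in ceh1/eds16 as in ceh1 while FMO1 and ALD1 are highest in ceh1/eds16.

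Outside the list, ARD3, a gene of methionine salvage, had the third most negative interaction of the 891 genes called, which include genes with no symbol, and rose with ICS1 intact alone. It stood at 22.2, 15.1 and 20.5 in ceh1/eds16, against 15.4, 9.31 and 16.6 in eds16. The counts with ICS1 intact were 477, 466 and 348 in ceh1, against 25.0, 17.8 and 18.0 in Col-0, an interaction of -3.86 ± 0.35 (SE, adjusted p = 1.21e-05, limma). XTH10, a xyloglucan-modifying enzyme gene that neighbours PR1 at a distance of 2230 bases on the opposite strand, had an interaction of -3.01 ± 0.61 (SE, adjusted p = 0.00924, limma), with 17.5 ± 11.2 in ceh1/eds16 against 8.82 ± 2.31 in eds16, and 133 ± 1.79 in ceh1 against 9.71 ± 3.96 in Col-0 (SD, n = 3 each). PCR1, named for plant cadmium resistance, kept a smaller rise, at 201, 184 and 279 in ceh1/eds16, against 65.2, 54.5 and 92.2 in eds16. With ICS1 intact it stood at 4017, 3634 and 2789 in ceh1, against 258, 457 and 343 in Col-0, an interaction of -1.68 ± 0.31 (SE, adjusted p = 0.00549, limma). LHT7, of the lysine and histidine transporter family, had -2.48, and its call was lost without ceh1 replicate 1 or 2 (adjusted p up to 0.062, limma). LHT7 also passed the filter on low values only with its counts in ceh1. The carboxypeptidase-like gene scpl16 had -1.94. LHT7 and scpl16 overlap a gene on the other strand, by 603 and 361 bases, and the labels do not say whether reads were counted by strand. The same limit holds for EDS5, WRKY33, TCH3, LHCB2.3, GUN4, NPQ1, LUT5, TT19, PDIL2-1, PnsL3, CRK10 and RLP23, with overlaps of 6 to 946 bases.

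Among genes that make or regulate salicylic acid, EDS5 and PBS3 rose more with ceh1 when ICS1 was missing. Of 18 tested members of the list of salicylic acid synthesis and its regulators, 4 had a higher interaction (3.08% of all genes) and 0 a lower one (1.79% of all genes, list median 0.23). Without replicate 3 of ceh1/eds16 there were 5 and 1, against 9.21% and 7.27% of all genes, and every list count without that library reads against these shares. EDS5, which exports the ICS1 product from the plastid, stood at 538, 545 and 326 in ceh1/eds16, against 35.5, 34.6 and 22.8 in eds16. With ICS1 intact the counts were 217, 193 and 263 in ceh1, against 35.7, 57.1 and 46.4 in Col-0, so the ceh1/eds16 libraries were the highest, and the interaction was 1.60 ± 0.33 (SE, adjusted p = 0.0097, limma). PBS3, which conjugates isochorismate to glutamate, stood at 1201, 1163 and 937 in ceh1/eds16, against 118, 101 and 116 in eds16. Where ICS1 worked it stood at 508, 497 and 548 in ceh1, against 126, 136 and 104 in Col-0, an interaction of 1.2001 ± 0.19 (SE, adjusted p = 0.00195, limma). The regulators CBP60G (1.18) and EDS1 (0.63) were also called, and both calls were lost on leaving out any library except ceh1/eds16 replicate 3, eds16 replicate 3, ceh1 replicate 3 and Col-0 replicates 1 and 3, with adjusted p up to 0.077 and 0.1.

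Among 9 tested genes of N-hydroxypipecolic acid and systemic resistance, 3 had a higher interaction and 0 a lower one (median 0.20), against 3.08% and 1.79% of all genes, with 3 and 1 without replicate 3 of ceh1/eds16. FMO1 (AT1G19250; chromosome 1, 6650476 to 6653195), the enzyme that makes N-hydroxypipecolic acid, stood at 529, 548 and 402 in ceh1/eds16, against 5.76, 2.66 and 8.29 in eds16. In the pair with ICS1 it stood at 58.2, 66.9 and 59.8 in ceh1, against 7.13, 14.3 and 6.44 in Col-0. It rose in both backgrounds, by 6.32 in ceh1/eds16 and by 2.68 in ceh1 on the log2 scale, and the interaction was 3.64 ± 0.45 (SE, adjusted p = 0.000246, limma). ALD1, the aminotransferase that acts before it, stood at 182, 141 and 129.8 in ceh1/eds16, against 10.6, 13.3 and 14.5 in eds16. Its counts with ICS1 intact were 52.4, 41.1 and 49.8 in ceh1, against 14.3, 16.1 and 23.2 in Col-0, an interaction of 2.07 ± 0.33 (SE, adjusted p = 0.00186, limma). In both genes the 3 ceh1/eds16 libraries were above the other 9. CBP60G is the third member called.

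Of the 891 genes called, the largest positive interactions were those of AACT1 and of the plant defensin genes, which end the jasmonate and ethylene branch of defence. The plant defensin gene PDF1.2 (AT5G44420; chromosome 5, 17906968 to 17907638) stood at 1121, 756 and 2153 in ceh1/eds16, against 48.0, 57.2 and 33.1 in eds16. In plants with working ICS1 it had 13.6, 17.9 and 8.97 in ceh1, against 20.2, 17.8 and 15.5 in Col-0. It rose by 4.73 on the log2 scale without ICS1, while in ceh1 the libraries overlapped those of Col-0 (adjusted p = 0.289, limma), an interaction of 5.15 ± 0.45 (SE, adjusted p = 9.49e-06, limma). PDF1.3 had 5.25, PDF1.2c 4.96 and PDF1.2B 4.53. Group means of PDF1.3 in eds16, ceh1 and Col-0 were 5.89, 10.9 and 2.84. In the same order they were 20.2, 4.44 and 4.46 for PDF1.2c and 10.4, 7.34 and 6.28 for PDF1.2B. PDF1.3, PDF1.2c and PDF1.2B thus passed the filter on low values only with their counts in ceh1/eds16. Such low values make the size and rank of their interactions depend on the 1 added before the log. The coding sequences of the 4 genes are each 243 bases long and 91.4% to 94.7% identical, so reads may have been shared between them and the split over the 4 is uncertain. Replicate 3 of ceh1/eds16 was the highest library in all 4, and without it their interactions were 4.74, 4.75, 4.46 and 4.17 for PDF1.2, PDF1.3, PDF1.2c and PDF1.2B in that order, all called. PDF1.3 was not called by edgeR's quasi-likelihood test on the recovered reads (adjusted p = 0.0896). ORA59, the factor that joins jasmonate and ethylene signals at defensin promoters, stood at 178, 137 and 271 in ceh1/eds16, against 3.84, 10.6 and 14.5 in eds16. On the ICS1 side it stood at 36.3, 47.0 and 37.9 in ceh1, against 13.1, 19.6 and 14.2 in Col-0, an interaction of 2.98 ± 0.50 (SE, adjusted p = 0.0028, limma).

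AACT1 (AT5G61160; chromosome 5, 24608605 to 24610329), which encodes an agmatine coumaroyltransferase of antifungal amide synthesis, had the largest interaction of all named genes on log2(normalized count + 1). It stood at 117, 129 and 137 in ceh1/eds16, against 4.80, 7.98 and 25.9 in eds16. The counts with ICS1 intact were 1.65, 1.32 and 0.997 in ceh1, against 13.1, 23.2 and 12.9 in Col-0. The ceh1 libraries thus held 0.997 to 1.65 normalized counts, below every Col-0 library, while the ceh1/eds16 libraries were above every other library. Values so near the floor make the size of its fall, its interaction and its rank depend on the 1 added before the log. It rose by 3.52 without ICS1 and fell by 2.86 with it on the log2 scale, and the interaction was 6.38 ± 0.62 (SE, adjusted p = 2.05e-05, limma). The list of jasmonate signalling and response had 4 of 28 members higher and 0 lower (median 0.41), against 3.08% and 1.79% of all genes. Without replicate 3 of ceh1/eds16 there were 8 and 2. The 4 called with all libraries were ORA59, PDF1.2, PDF1.2B and PDF1.3. Reads may have been shared between the PDF genes, so their calls may not be separate. The members ranged from -1.63 for VSP2, which was not called, to 5.25 for PDF1.3.

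The promoters of PDF1.2 and AACT1 are shown because both hold the GCC box, GCCGCC, the sequence bound by ethylene response factors such as ORA59. Each run is the 250 bases before the annotated start on the gene's strand (TAIR10.1, RefSeq), with the GCC box in capitals.
PDF1.2 (chr5:17907639-17907888, minus strand): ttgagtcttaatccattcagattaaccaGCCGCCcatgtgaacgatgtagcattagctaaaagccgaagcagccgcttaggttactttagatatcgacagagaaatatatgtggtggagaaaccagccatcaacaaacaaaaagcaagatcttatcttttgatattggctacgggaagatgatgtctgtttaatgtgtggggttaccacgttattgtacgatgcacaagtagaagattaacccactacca
AACT1 (chr5:24608355-24608604, plus strand): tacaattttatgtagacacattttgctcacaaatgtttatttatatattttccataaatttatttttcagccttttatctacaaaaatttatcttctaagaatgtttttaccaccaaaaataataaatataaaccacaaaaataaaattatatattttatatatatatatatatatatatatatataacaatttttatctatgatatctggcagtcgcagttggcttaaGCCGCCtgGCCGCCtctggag
The box lies 222 to 217 bases before the start of PDF1.2, and AACT1 has 2, at 21 to 16 and 13 to 8 bases before the start. Searched on both strands from 250 bases before to 50 after the start, GCCGCC was in 5.1% of promoters of genes with a higher interaction (29 of 564), 0.6% with a lower one (2 of 327) and 2.7% of all 18275 searched. The window of ORA59 and PDF1.2B also held it, and those of PDF1.3 and PDF1.2c did not.

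In the list of jasmonate synthesis AOS fell with ICS1 intact alone. Of 14 tested members 2 had a higher interaction and 0 a lower one (median 0.32), and the same counts stood without replicate 3 of ceh1/eds16. AOS (allene oxide synthase), which opens the pathway to jasmonate, stood at 1505, 1598 and 2148 in ceh1/eds16, against 1603, 1486 and 1368 in eds16, and these libraries overlapped. With ICS1 intact it stood at 695, 778 and 804 in ceh1, against 1508, 1365 and 1263 in Col-0, so the fall was seen with ICS1 intact alone, and the interaction was 1.08 ± 0.19 (SE, adjusted p = 0.00367, limma). HPL1, named for hydroperoxide lyase, rose without ICS1 alone, to 222 ± 17.1 in ceh1/eds16, against 85.7 ± 12.2 in eds16 (SD, n = 3 each). With ICS1 intact HPL1 stood at 61.0 ± 8.15 in ceh1, against 66.2 ± 13.4 in Col-0 (SD, n = 3 each). The interaction was 1.47 ± 0.25 (SE, adjusted p = 0.00315, limma). Ethylene genes had 2 of 17 higher and 0 lower (median 0.20), against 3.08% and 1.79% of all genes, with 6 and 0 without replicate 3 of ceh1/eds16, against 9.21% and 7.27%. The calls with all libraries were ACS6 of ethylene synthesis (1.50) and EBF1 (1.06), an F-box gene that marks the ethylene factor EIN3 for degradation. The call of ACS6 was lost without eds16 replicates 1 or 2, ceh1 replicates 1 or 2 or Col-0 replicate 2 (adjusted p up to 0.073) and that of EBF1 without ceh1/eds16 replicate 2, eds16 replicates 1 or 2 or ceh1 replicates 1 or 2 (adjusted p up to 0.091).

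**Figure D4:**
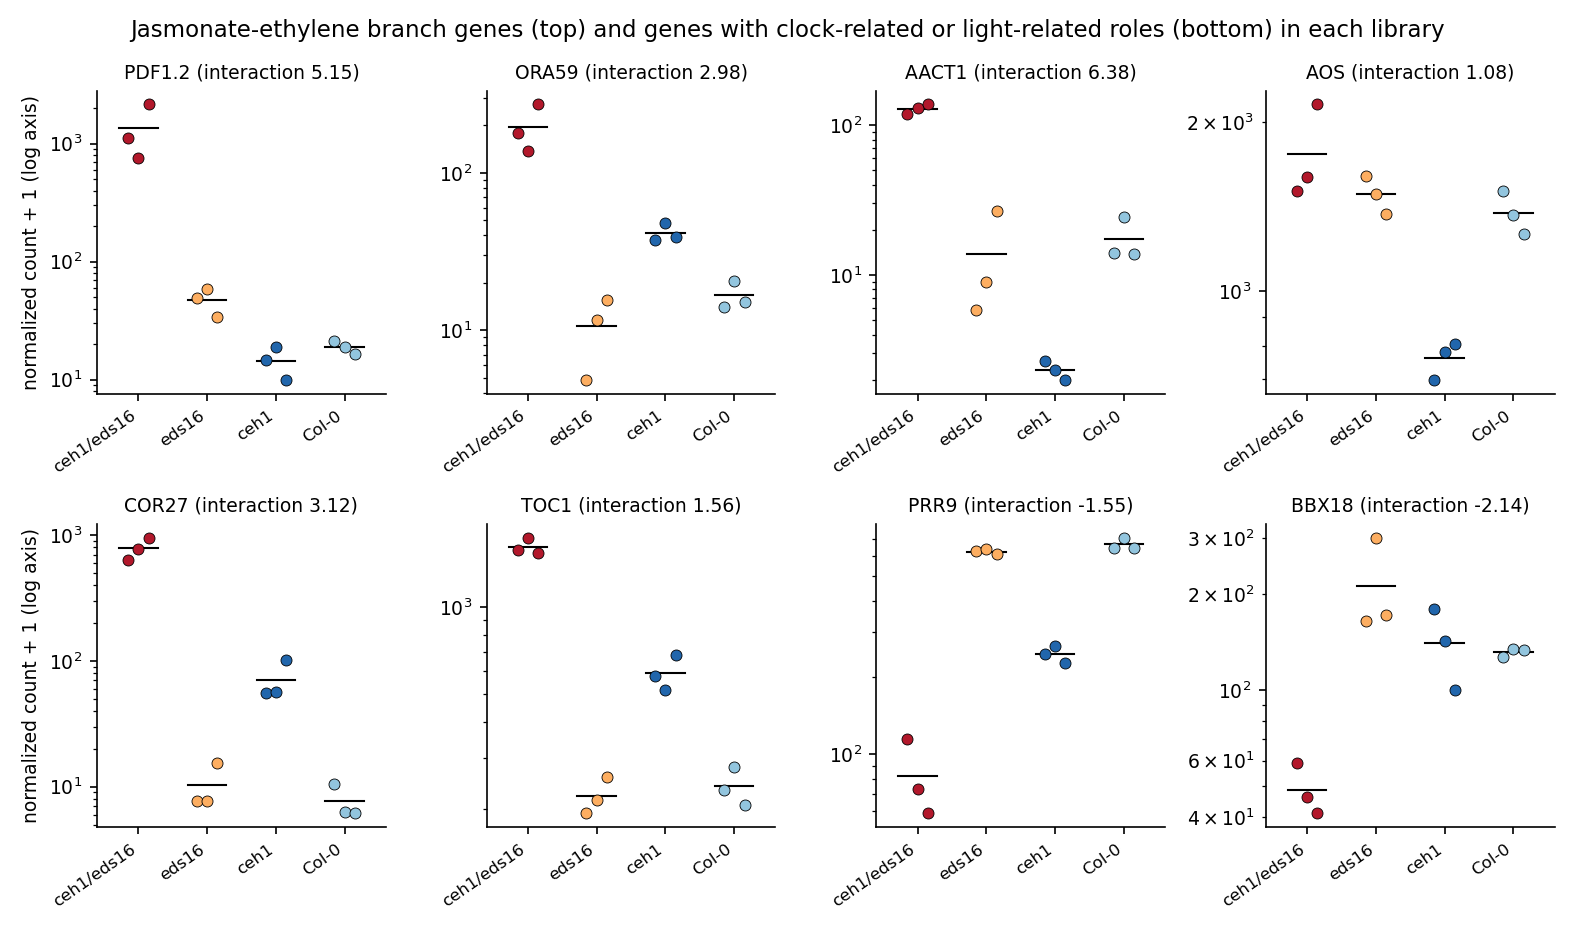
Normalized count + 1 (log axis) of 8 genes in each of the 12 libraries, with the genotypes from left to right ceh1/eds16, eds16, ceh1 and Col-0, points for libraries and bars for group means. PDF1.2, ORA59, AACT1, COR27 and TOC1 are highest in the ceh1/eds16 libraries and PRR9 and BBX18 lowest there, while AOS is lowest in ceh1.

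Clock genes went apart in both directions. Of 23 tested members of the circadian clock list, 4 had a higher interaction and 3 a lower one (median 0.01), against 3.08% and 1.79% of all genes. Without replicate 3 of ceh1/eds16 there were 7 and 4, against 9.21% and 7.27% of all genes. The higher ones peak in the evening in wild type plants. TOC1 (AT5G61380; chromosome 5, 24674963 to 24678550) stood at 1580.3, 1737 and 1533 in ceh1/eds16, against 193, 214 and 258 in eds16. With ICS1 intact the counts were 579, 518 and 679.8 in ceh1, against 232, 280.1 and 206 in Col-0, and it rose in both backgrounds with an interaction of 1.56 ± 0.20 (SE, adjusted p = 0.000419, limma). BOA, a relative of the evening complex factor LUX, stood at 90.7, 127 and 177 in ceh1/eds16, against 11.5, 7.98 and 9.32 in eds16. Where ICS1 worked it stood at 16.5, 15.2 and 22.9 in ceh1, against 7.13, 10.7 and 9.01 in Col-0, an interaction of 2.66 ± 0.41 (SE, adjusted p = 0.00145, limma). BOA lies over a gene on the other strand by 1896 bases, so its reads cannot be told from that gene's if strand was not kept. LUX itself had 1.24, and ELF4, of the same complex, 1.61, a call lost without eds16 replicates 1 or 3, ceh1 replicates 1 or 2 or Col-0 replicates 2 or 3 (adjusted p up to 0.086) and not made by DESeq2 on the recovered reads (adjusted p = 0.0532).

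The lower clock members peak in the morning in wild type plants. PRR9, a repressor of morning genes, stood at 114, 72.3 and 57.6 in ceh1/eds16, against 623, 639 and 606 in eds16. In the pair with ICS1 it stood at 247, 264 and 227 in ceh1, against 643, 705 and 643 in Col-0, so it fell in both backgrounds and further without ICS1, with an interaction of -1.55 ± 0.25 (SE, adjusted p = 0.0021, limma). RVE8 had -1.38 and CCA1 -1.26. Outside the list, 4 more of the named genes with the largest positive interactions were JMJD5, COR27, DIN11 and BT2. JMJD5, a histone demethylase gene tied to the clock, stood at 269, 337 and 494 in ceh1/eds16, against 12.5, 6.65 and 16.6 in eds16. Its counts with ICS1 intact were 17.7, 21.2 and 28.9 in ceh1, against 10.7, 8.92 and 16.7 in Col-0, an interaction of 4.002 ± 0.46 (SE, adjusted p = 0.000113, limma). COR27, a regulator of the clock and of cold responses, stood at 639, 771 and 954 in ceh1/eds16, against 6.72, 6.65 and 14.5 in eds16. In plants with working ICS1 it had 54.4, 55.6 and 101 in ceh1, against 9.51, 5.35 and 5.15 in Col-0, an interaction of 3.124 ± 0.44 (SE, adjusted p = 0.000747, limma). BT2, a scaffold protein gene that answers to sugar and nitrogen, stood at 2062 ± 333 in ceh1/eds16, against 63.0 ± 16.7 in eds16, and at 291 ± 126 in ceh1, against 62.5 ± 3.11 in Col-0 (SD, n = 3 each), an interaction of 2.91 ± 0.33 (SE, adjusted p = 0.000105, limma). The dark-inducible dioxygenase gene DIN11 stood at 372 ± 33.4 in ceh1/eds16, against 14.6 ± 1.26 in eds16, and at 26.5 ± 6.41 in ceh1, against 11.2 ± 5.66 in Col-0 (SD, n = 3 each), an interaction of 3.31 ± 0.42 (SE, adjusted p = 0.000313, limma). In all 4 the ceh1/eds16 libraries lay above the other 9. The labels give no time of harvest, so a difference in clock phase and a difference in harvest time between genotypes cannot be told apart.

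The promoter of BOA is shown because it holds the core of the evening element, AATATCT, to which CCA1 and the RVE factors bind. The run is the 250 bases before the annotated start on the gene's strand (TAIR10.1, RefSeq), with the core in capitals. The core lies on the opposite strand.
BOA (chr5:24003638-24003887, plus strand): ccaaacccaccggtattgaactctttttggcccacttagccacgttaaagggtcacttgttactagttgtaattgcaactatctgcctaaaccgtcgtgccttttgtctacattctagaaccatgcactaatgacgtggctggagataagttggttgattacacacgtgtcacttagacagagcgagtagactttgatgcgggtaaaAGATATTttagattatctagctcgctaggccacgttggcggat
BOA has 1 copy, at 43 to 37 bases before the start. In the window from 250 bases before to 50 after the start, AATATCT on either strand was in 19.9% of promoters of genes with a higher interaction (112 of 564), 11.6% with a lower one (38 of 327) and 11.9% of all. The windows of TOC1, ELF4, JMJD5, BT2 and PRR9 held it as well, and those of DIN11 and AACT1 did not. The W-box core was in 58.2% of promoters with a higher interaction, 48.0% with a lower one and 50.7% of all. The core bound by TGA factors, TGACG, which can overlap the W-box core, was in 25.9%, 26% and 23.9% in the same order. The G-box, CACGTG, was in 10.3%, 12.5% and 8.9%.

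Lists of immune perception and of fast stress responses had calls in the higher direction and none in the lower. The share of all genes called higher was 3.08%, and 9.21% without replicate 3 of ceh1/eds16. Pattern-triggered immunity had 5 of 19 higher (median 0.64), with 7 and 0 without that library. RBOHD, the oxidase of the immune oxidative burst, stood at 815, 952 and 718 in ceh1/eds16, against 292, 253 and 290.1 in eds16. On the ICS1 side it stood at 487, 444 and 581 in ceh1, against 367, 314 and 372 in Col-0, an interaction of 1.05 ± 0.19 (SE, adjusted p = 0.00516, limma). RLP23, a receptor for microbial peptides, stood at 512 ± 35.4 in ceh1/eds16, against 44.6 ± 14.8 in eds16, and at 882 ± 30.6 in ceh1, against 233 ± 56.4 in Col-0 (SD, n = 3 each). Its interaction was 1.59 ± 0.28 (SE, adjusted p = 0.00376, limma) although its level was lower in ceh1/eds16 than in ceh1 (log2 -0.79, adjusted p = 0.0169), since eds16 lay further below Col-0 (log2 -2.38). MPK3 (0.87), CYP81F2 (1.72) and WRKY33 (1.14) complete the count, and the call of WRKY33 was lost without eds16 replicate 1, ceh1 replicates 1 or 2 or Col-0 replicate 2 (adjusted p up to 0.066). Intracellular immune receptors had 2 of 13 higher (median 0.52) and 10 without replicate 3 of ceh1/eds16, led by RPS4 at 1.04 ± 0.19 (SE, adjusted p = 0.00546, limma). The other was ADR1 (0.73), a helper of such receptors, lost on leaving out any library except ceh1/eds16 replicate 3, eds16 replicate 2, ceh1 replicate 3 and Col-0 replicates 1 and 3 (adjusted p up to 0.11). Cysteine-rich and wall-associated kinases had 2 of 15 higher (median 0.48) and 6 without that library, led by WAK3 at 0.98 ± 0.19 (SE, adjusted p = 0.00762, limma). The other was CRK10 (0.70), lost on leaving out any library except ceh1/eds16 replicate 3, eds16 replicate 2, ceh1 replicate 3 and Col-0 replicate 3 (adjusted p up to 0.09). With the gene length trend removed, 993 of the 18276 genes with an annotated length were called higher. Pattern-triggered immunity then had 7 higher (median 0.49), intracellular immune receptors 4 (0.46) and these kinases 3 (0.47). Without replicate 3 of ceh1/eds16 the length trend was steeper. The median interaction of the longest group of genes was 0.329 there, against 0.204 with all libraries. The part of gene length in the 10 receptor calls was not tested.

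Camalexin and indole glucosinolate genes had 6 of 13 higher and 0 lower (median 0.84), against 3.08% and 1.79% of all genes, with 9 and 0 without replicate 3 of ceh1/eds16. CYP71A12, which makes indole precursors of camalexin-related compounds, stood at 389.5, 396 and 363 in ceh1/eds16, against 5.76, 5.32 and 12.4 in eds16. The counts with ICS1 intact were 131, 115 and 154 in ceh1, against 8.32, 12.5 and 12.9 in Col-0, an interaction of 2.06 ± 0.37 (SE, adjusted p = 0.00416, limma). CYP81F2, which hydroxylates indole glucosinolates, stood at 187, 203 and 269 in ceh1/eds16, against 11.5, 7.98 and 15.5 in eds16. With ICS1 intact it stood at 98.6, 125 and 115 in ceh1, against 15.5, 25.0 and 20.6 in Col-0, an interaction of 1.72 ± 0.34 (SE, adjusted p = 0.00904, limma). In both genes the order of genotypes was ceh1/eds16, ceh1 and then the controls. The methyltransferase genes IGMT2 (2.04) and IGMT1 (1.35) and the regulator MYB51 (1.32) were also called. GSTF6, the glutathione transferase of camalexin synthesis, had 0.94 and lost its call without eds16 replicates 1 or 2, ceh1 replicate 1 or Col-0 replicate 2 (adjusted p up to 0.057). CYP71A12 has a relative, CYP71A13, with 90.4% identity in the coding sequence, and IGMT1 and IGMT2 share 82.0%, so reads may have been shared. Aliphatic glucosinolates had 0 of 17 called by limma and by edgeR and 1 by DESeq2 (median -0.33), and 1 higher and 3 lower without replicate 3 of ceh1/eds16. At an unadjusted p under 0.05 (limma) there were 6 of the 17, against 3985 of all 18289 genes.

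The rapid general stress response had 4 of 21 higher and 0 lower (median 0.76), against 3.08% and 1.79% of all genes, the same counts without replicate 3 of ceh1/eds16. ZAT6, a zinc finger repressor gene, stood at 335, 401 and 413 in ceh1/eds16, against 21.1, 22.6 and 20.7 in eds16. With ICS1 intact the counts were 110.1, 104 and 214 in ceh1, against 19.0, 23.2 and 25.8 in Col-0, an interaction of 1.56 ± 0.33 (SE, adjusted p = 0.0124, limma), which edgeR on the recovered reads did not call (adjusted p = 0.0531). ERF5 (1.51) lost its call without ceh1/eds16 replicate 1, eds16 replicate 1, ceh1 replicates 1 or 2 or Col-0 replicates 1 or 3. The calmodulin-like gene TCH3 (0.88) lost its call on leaving out any library except ceh1/eds16 replicate 3, eds16 replicate 3, ceh1 replicate 3 and Col-0 replicate 1. The adjusted p was up to 0.11 for each of these genes (limma). TCH3 was also not called after quantile normalization (0.54, adjusted p = 0.239, limma). WRKY33 is the fourth. Oxidative stress genes had 3 of 16 higher and 0 lower (median 0.26), with 4 and 1 without replicate 3 of ceh1/eds16. GSTF7 stood at 3001 ± 570.0 in ceh1/eds16, against 98.3 ± 11.2 in eds16, and at 2109 ± 93.4 in ceh1, against 187 ± 30.2 in Col-0 (SD, n = 3 each), an interaction of 1.41 ± 0.21 (SE, adjusted p = 0.00121, limma). GSTF6 and GSTF7 are 94.3% identical in coding sequence. The kinase gene OXI1 (2.17) lost its call on leaving out any library except ceh1/eds16 replicate 3, eds16 replicate 3 and ceh1 replicate 3 (adjusted p up to 0.14), and was not called by edgeR (adjusted p = 0.146) or DESeq2 (adjusted p = 0.165) on the recovered reads.

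Endoplasmic reticulum stress genes had 3 of 24 tested members lower and 1 higher (median -0.24), against 1.79% and 3.08% of all genes, and 6 and 2 without replicate 3 of ceh1/eds16. SAR1A, a GTPase of vesicle export, rose in both backgrounds and less without ICS1, at 209, 176 and 176 in ceh1/eds16, against 65.2, 74.5 and 45.6 in eds16. Where ICS1 worked it stood at 369, 390.2 and 342 in ceh1, against 44.0, 46.4 and 34.8 in Col-0, an interaction of -1.51 ± 0.25 (SE, adjusted p = 0.0028, limma). BIP3, a chaperone gene induced by unfolded proteins, stood at 1546, 1725 and 1698 in ceh1/eds16, against 23.0, 14.6 and 19.7 in eds16. In the pair with ICS1 it stood at 2070.3, 1928 and 2109 in ceh1, against 53.5, 66.0 and 48.9 in Col-0, an interaction of 1.22 ± 0.22 (SE, adjusted p = 0.00426, limma). Its positive sign came with eds16 below Col-0, and in normalized counts the interaction was -342 ± 78.5 (SE). The other lower members were SDF2 (-0.64) and the disulfide isomerase gene PDIL2-1 (-0.54). SDF2 lost its call on leaving out any library except ceh1/eds16 replicate 3, eds16 replicate 3, ceh1 replicate 3 and Col-0 replicate 3, and PDIL2-1 on leaving out any library except ceh1/eds16 replicate 3, eds16 replicate 3 and ceh1 replicate 3 (adjusted p up to 0.11 and 0.13).

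Plastid and isoprenoid lists had 0 to 2 calls each, in lists of 7 to 40 genes, against 4.87% of all genes. Photosynthesis had 2 of 40 lower and 0 higher (median 0.01), with 4 and 1 without replicate 3 of ceh1/eds16, and with the gene length trend removed there were 2 lower and 4 higher (median 0.19). LHCB2.3, an antenna protein gene of photosystem II, stood at 613, 487 and 555 in ceh1/eds16, against 6841, 8356 and 7535 in eds16. Its counts with ICS1 intact were 1382, 1313 and 969 in ceh1, against 7938, 8357 and 7674 in Col-0, so it fell in both backgrounds and further without ICS1, and the interaction was -1.05 ± 0.20 (SE, adjusted p = 0.00523, limma). Its paralog LHCB2.1 (-0.73) lost its call on leaving out any library except ceh1/eds16 replicate 3, eds16 replicate 3 and ceh1 replicate 3, and so did GUN4 (-0.83), an activator of magnesium chelatase and the 1 call among 18 chlorophyll genes (adjusted p up to 0.13 and 0.11). Carotenoid genes had 2 of 15 higher and 0 lower (median 0.11), with 4 and 1 without replicate 3 of ceh1/eds16. NPQ1 of the xanthophyll cycle stood at 1736 ± 143 in ceh1/eds16, against 1550.1 ± 37.4 in eds16, and at 968 ± 15.2 in ceh1, against 1444 ± 90.5 in Col-0 (SD, n = 3 each), an interaction of 0.73 ± 0.14 (SE, adjusted p = 0.00788, limma). LUT5 (0.61) lost its call without ceh1/eds16 replicate 2, eds16 replicate 1, ceh1 replicates 1 or 2 or Col-0 replicate 2 (adjusted p up to 0.076). In the mevalonate pathway (median -0.19) HMG1, its rate-limiting reductase, was the 1 call of 13 and fell less without ICS1, at 2031 ± 173 in ceh1/eds16, against 2893 ± 180.1 in eds16, and at 1515 ± 117 in ceh1, against 3955 ± 228 in Col-0 (SD, n = 3 each), an interaction of 0.87 ± 0.16 (SE, adjusted p = 0.004, limma). Without replicate 3 of ceh1/eds16 the mevalonate list had 1 higher and 2 lower and the chlorophyll list 0 and 2. The MEP pathway, where HDS acts, had 0 of 7 called by limma and by edgeR (median -0.04, range -0.38 to 0.60). The 1 call by DESeq2 was HDS itself, as was the 1 higher call without replicate 3 of ceh1/eds16 (limma). At an unadjusted p under 0.05 (limma) there was 1 of the 7, against 3985 of all 18289 genes.

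Flavonoid and anthocyanin genes had 5 of 10 tested members lower and 0 higher (median -0.91), against 1.79% and 3.08% of all genes, and the same counts without replicate 3 of ceh1/eds16. PAP1, the MYB factor that switches on anthocyanin synthesis, stood at 28.5, 39.9 and 29.3 in ceh1/eds16, against 59.5, 62.5 and 51.8 in eds16. In plants with working ICS1 it had 32.2, 42.4 and 23.9 in ceh1, against 23.8, 17.8 and 20.6 in Col-0. Its eds16 libraries were thus the highest 3, and the interaction was -1.44 ± 0.34 (SE, adjusted p = 0.0238, limma). LDOX, an enzyme of the anthocyanin branch, stood at 24.9, 25.9 and 26.4 in ceh1/eds16, against 108, 104 and 70.4 in eds16. On the ICS1 side it stood at 28.9, 23.8 and 26.9 in ceh1, against 46.4, 30.3 and 32.2 in Col-0, an interaction of -1.39 ± 0.32 (SE, adjusted p = 0.0189, limma). DFR, of the same branch, had -1.61 and TT19, a transferase for pigment transport, -1.73. In PAP1, LDOX, DFR and TT19 the call in eds16 against Col-0 was higher (log2 1.44, 1.35, 1.71 and 1.62), and ceh1/eds16 against ceh1 was not called. FLS1, a flavonol synthase gene, had -1.22. The call of PAP1 was lost without ceh1/eds16 replicate 1, eds16 replicates 1 or 2, ceh1 replicates 1 or 2 or Col-0 replicate 2, that of LDOX without eds16 replicates 1 or 2, ceh1 replicate 1 or Col-0 replicate 2, that of DFR on leaving out any library except ceh1/eds16 replicates 1 and 3, eds16 replicate 3, ceh1 replicate 3 and Col-0 replicate 1 and that of TT19 on leaving out any library except ceh1/eds16 replicate 3, eds16 replicate 3, ceh1 replicate 1 and Col-0 replicate 3, with adjusted p up to 0.084, 0.069, 0.097 and 0.1.

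Other lists had 2 calls or fewer. Abscisic acid genes had 2 of 20 higher and 0 lower (median 0.18), against 3.08% and 1.79% of all genes, with 3 and 2 without replicate 3 of ceh1/eds16, and COR15A is the other. RD29A, a dehydration and cold response gene, stood at 490.0, 569.7 and 762 in ceh1/eds16, against 437, 527 and 410.2 in eds16, and at 250.3, 270.3 and 353 in ceh1, against 530.3, 591 and 515 in Col-0. It fell with ICS1 intact alone, with an interaction of 1.31 ± 0.23 (SE, adjusted p = 0.00397, limma). In cell wall expansion XTH7 was the 1 call of 14, at 340.1 ± 40.6 in ceh1/eds16, against 1527 ± 78.2 in eds16, and at 540.4 ± 23.7 in ceh1, against 1032 ± 92.4 in Col-0 (SD, n = 3 each), an interaction of -1.24 ± 0.16 (SE, adjusted p = 0.00043, limma). Single calls were SEN1 of 12 senescence genes (1.46, lost without eds16 replicate 1, ceh1 replicates 1 or 2 or Col-0 replicate 2), SPX1 of 15 iron and phosphate genes (-1.10, lost without ceh1 replicate 2), CYCB1;2 of 12 cell cycle genes (-0.81, lost on leaving out any library except ceh1/eds16 replicate 3, eds16 replicate 3 and Col-0 replicate 3) and MAF4 of 10 flowering time genes (-1.52, lost on leaving out any library except ceh1/eds16 replicates 1 and 3, eds16 replicate 3, ceh1 replicate 3 and Col-0 replicate 3). Without replicate 3 of ceh1/eds16 the cell cycle list had 5 lower, cell wall expansion 1 higher and 2 lower, iron and phosphate 2 and 1, flowering time 1 and 1, and auxin 2 and 3. The highest adjusted p in the fits that lost these calls was 0.12. Cell cycle genes had a median of -0.63, against 0.024 over all genes. Of the 12 tested, 7 had an unadjusted p under 0.05 (limma), against 3985 of all 18289 genes. With the gene length trend removed 3 of them were lower, against 572 of the 18276 genes with an annotated length. Of 23 auxin genes the 1 call was PBS3, also of the first list. Heat shock had 0 of 10 called by limma, edgeR or DESeq2 (median 0.37), and 1 higher without replicate 3 of ceh1/eds16. At an unadjusted p under 0.05 (limma) there were 3 of the 10, against 3985 of all 18289 genes.

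**Figure D5:**
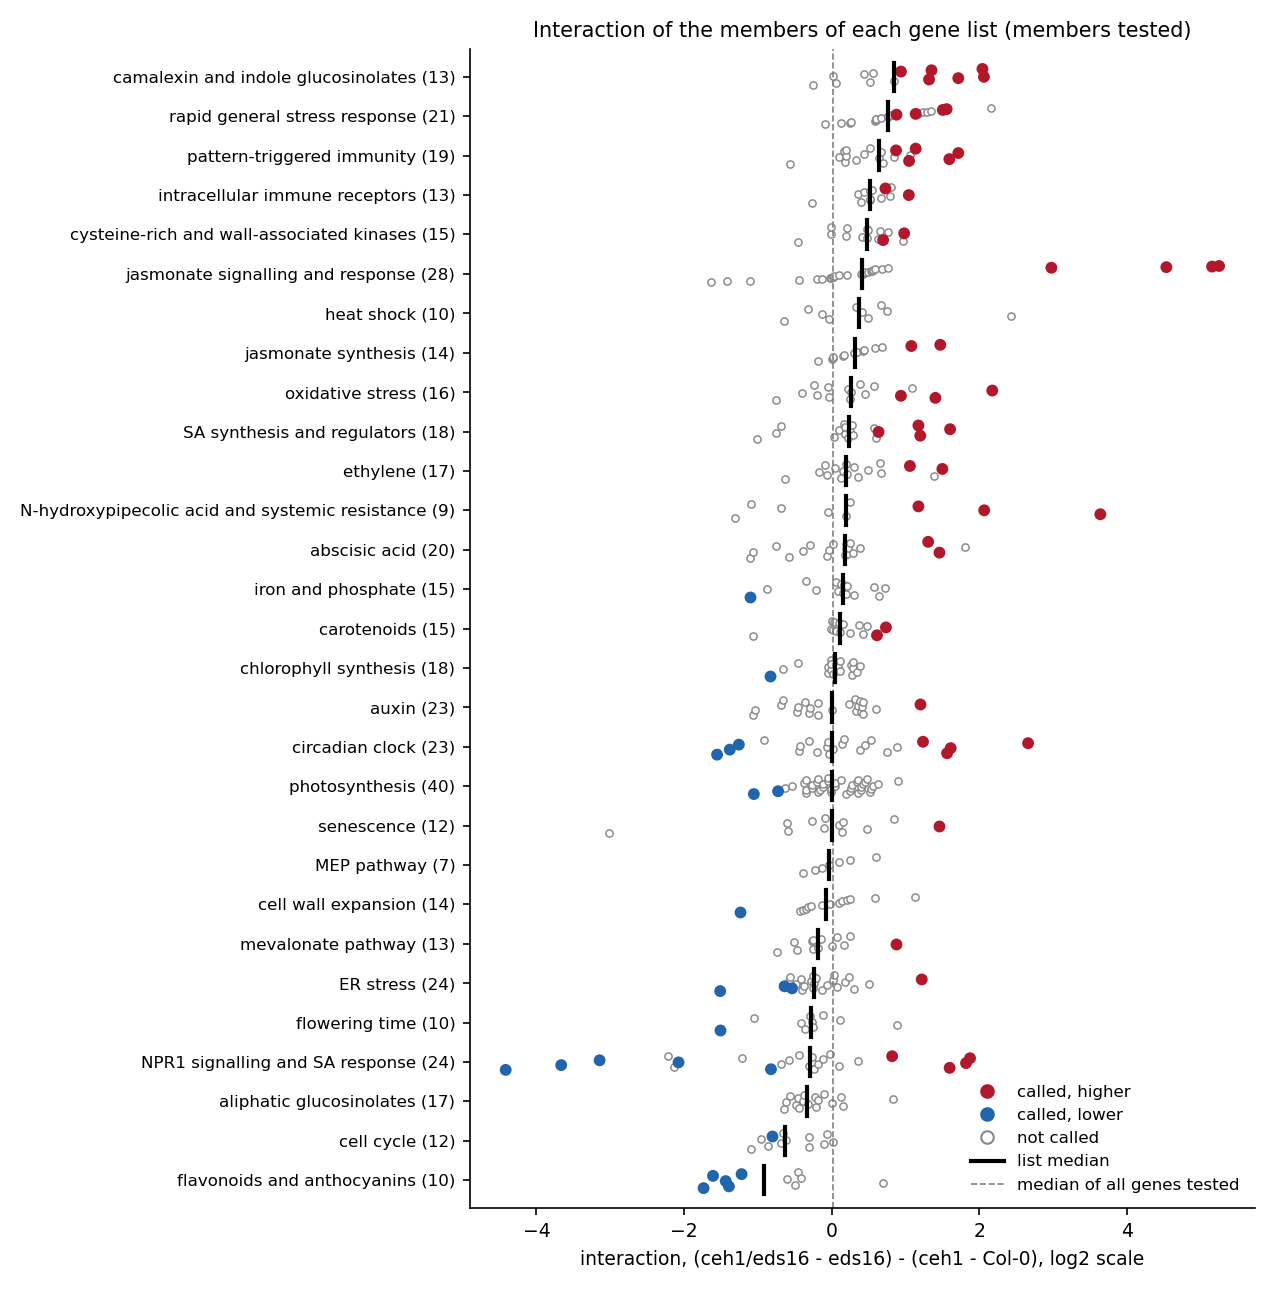
Interaction on the log2 scale (horizontal axis) of each tested member of 29 gene lists, ordered by list median. Filled points are genes called higher (red) or lower (blue), open points were not called, black bars are list medians and the dashed line is the median of all genes tested (0.024), and camalexin and indole glucosinolates have the highest median (0.84) and flavonoids and anthocyanins the lowest (-0.91).

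Among the named genes that changed direction, 3 besides AACT1 were called whichever library was left out. COR15A, a cold-regulated plastid protein gene, stood at 483, 443 and 579 in ceh1/eds16, against 308, 253 and 292 in eds16. The counts with ICS1 intact were 167, 174 and 178 in ceh1, against 248, 243 and 331 in Col-0, an interaction of 1.46 ± 0.20 (SE, adjusted p = 0.000689, limma). PnsL3, a subunit of the plastid NADH dehydrogenase-like complex, stood at 206, 202 and 328 in ceh1/eds16, against 118, 117 and 147 in eds16. With ICS1 intact it stood at 51.6, 65.6 and 52.8 in ceh1, against 97.5, 111 and 96.6 in Col-0, an interaction of 1.75 ± 0.26 (SE, adjusted p = 0.00133, limma). HIS1-3, a linker histone gene induced by drought, stood at 156 ± 33.1 in ceh1/eds16, against 77.0 ± 17.39 in eds16, and at 59.1 ± 5.56 in ceh1, against 93.7 ± 24.2 in Col-0 (SD, n = 3 each), an interaction of 1.64 ± 0.30 (SE, adjusted p = 0.0048, limma). In each of the 3, every ceh1/eds16 library was above every eds16 library and every ceh1 library below every Col-0 library.

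Among the 12 genes named for the largest negative interactions, falls with ceh1 in the eds16 background alone, or further there, were seen in BBX18, CYP71B2 and CYP96A15. Other named genes, such as PRR9 and LHCB2.3 above, also fell further in that background. BBX18, a B-box factor of light signalling, stood at 57.8, 45.3 and 40.0 in ceh1/eds16, against 164, 299 and 171 in eds16. With ICS1 intact the counts were 179, 141 and 98.7 in ceh1, against 126, 134 and 133 in Col-0, which overlapped, and the interaction was -2.14 ± 0.33 (SE, adjusted p = 0.00148, limma). CYP71B2, a cytochrome P450 gene, stood at 188, 134 and 132 in ceh1/eds16, against 805, 831 and 661 in eds16. Where ICS1 worked it stood at 436, 439.9 and 459 in ceh1, against 635, 644 and 628 in Col-0, an interaction of -1.83 ± 0.20 (SE, adjusted p = 6.21e-05, limma). CYP96A15, which hydroxylates alkanes of the leaf wax, had -1.76 and lost its call on leaving out any library except ceh1/eds16 replicates 2 and 3 and ceh1 replicate 3 (adjusted p up to 0.14).

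The sign of an interaction can depend on the scale, and for most calls it did not. In normalized counts 10 of the 564 higher interactions (1.8%) and 3 of the 327 lower ones (0.9%) had the opposite sign, 6 and 1 of them by more than 2 SE. All 10 were among the 209 genes with a larger rise in the eds16 background, where a low eds16 level gives a large ratio, and PR2, RLP23 and BIP3 are examples among the named genes.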

How the data were processed

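RNA-seq of 12 rosette libraries was read from 1 table of 33602 genes. The authors deposited normalized counts, a signal per gene that equals whole reads divided by 1 size factor per library. DESeq2, TopHat2 and the build TAIR10 are named per the submitters' processing notes, and the sources used here do not give versions, the read counter or strandedness. In every library 100% of values were whole multiples of 1 step within 0.01 reads, so reads were recovered for the count tests. Every row named a gene, and 279 organelle genes held 0% of reads.

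The values were tested as log2(normalized count + 1) with limma 3.58.1 in R 4.3.3, with the variance trend, all 12 libraries, 1 mean per genotype (8 residual and 8.69 prior degrees of freedom) and Benjamini-Hochberg adjustment over the 18289 genes tested. The 15313 other genes averaged under 10. P-values measure the spread between these samples, and depth limits genes with few reads.

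The named genes are, among called genes with a symbol and a mean of 100 or more in their highest genotype, the 12 largest interactions in each direction and the 3 largest per shape of at least 10 genes, then up to 4 called members per gene list at any mean, and ICS1, HDS, PR1, PR2 and PR5 always (80 in all). Genes given by their interaction alone complete the count of a list. The members, the 29 pathway lists and the 6 marker lists were chosen with earlier results of these data known. Coordinates, promoters and gene lengths are from RefSeq for TAIR10.1, and a promoter was found for all but 14 tested genes. Motifs were searched on both strands. Alternatives were edgeR 4.0.16 and DESeq2 1.42.0 on recovered reads, other pseudocounts, filters, scalings and variances, a replicate block, each library left out, and a gene length correction.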

Additional observations from a re-analysis of the deposited data

Results flagged for a closer look

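The effect of ceh1 differed between the eds16 and the ICS1 background by the test of the interaction itself for 564 genes with a higher and 327 with a lower value (limma, adjusted p under 0.05). Among the named genes, 6 went in opposite directions in the 2 backgrounds, each change called on its own. AACT1 (6.38 on the log2 scale), PnsL3 (1.75), HIS1-3 (1.64), COR15A (1.46) and EBF1 (1.06) rose in ceh1/eds16 against eds16 and fell in ceh1 against Col-0. PAP1 (-1.44) fell in ceh1/eds16 against eds16 and rose in ceh1 against Col-0.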

How the results depend on the processing

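All 891 calls kept their sign in each of the 26 alternatives that tested them, while their number moved. Leaving out 1 library gave 241 to 1684 higher and 105 to 1329 lower calls. Against 564 higher and 327 lower calls, equal library totals gave 328 and 586, no variance trend 334 and 220, no filter on low values 392 and 201, and DESeq2 on recovered reads 820 and 493. edgeR's quasi-likelihood test on those reads gave 547 and 333. Removing a trend with gene length from each library, chosen after seeing the data, gave 993 and 572, and 1221 and 834 also without replicate 3 of ceh1/eds16. The cause of these differences was not tested. With the replicate number as a replicate block there were 366 and 200. Of 18 same-numbered pairs of libraries 1 had deviations correlated above 0.1 (range -0.448 to 0.118). Pairs of unlike number reached 0.438 (ceh1/eds16 replicate 2 with ceh1 replicate 3) and 0.421 (ceh1/eds16 replicate 3 with ceh1 replicate 2). Deviations of that size could hide a weaker pairing, so these values do not decide whether the numbers pair the samples. Of 78 named calls, 51 held whichever library was left out and 52 in every other alternative. With equal library totals the higher calls of TCH3, EDS1, ADR1, CRK10, OXI1, EBF1 and LUT5 were lost. With equal upper quartiles those of TCH3 and ADR1 were lost. At an adjusted p under 0.01 there were 81 larger and 6 smaller rises, 15 larger and 10 smaller falls, 54 rises and 26 falls in the eds16 background alone, 19 rises and 35 falls with ICS1 intact alone, and 12 and 3 genes with opposite directions.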
